A study of Mus musculus with 2 samples.

Results

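A set of 10 genes of matrix breakdown and of its restraint was followed through the immune cells of the mouse aortic adventitia, the outer coat of the vessel wall. They were the matrix metalloproteinases *Mmp8*, *Mmp9*, *Mmp12*, *Mmp13*, *Mmp14* and *Mmp19*, the related membrane protease *Adam8*, and the tissue inhibitors *Timp1*, *Timp2* and *Timp3*. They were picked by gene symbol and make up 10 of the 55386 genes in the count tables, and all 10 had at least 1 unique molecular identifier (UMI, 1 counted transcript) in each of the 2 libraries. The cells were live CD45+ cells, that is, cells of the haematopoietic lineage, sorted from adventitias of 16-week-old *RankCreRosa26eYFP* mice and sequenced with 10x Genomics 3′ chemistry. In these mice Cre is made from the *Rank* gene and switches on the eYFP reporter for good, so that *Yfp* marks cells with a *Rank*-expressing ancestor. Both groups carried the same alleles. The steady state library held cells of 3 pooled, untreated animals. The AngII library held cells of 2 pooled animals given angiotensin II, a hormone that raises blood pressure and inflames the artery wall, at 1.8 µg per kg per min from implanted pumps for 10 days.

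Matrix metalloproteinases are zinc enzymes that cut collagens, elastin and other proteins of the extracellular matrix. Most are secreted as inactive proenzymes, while a few, among them MMP14, sit in the cell membrane and can activate others. The tissue inhibitors bind the active site and block it. In the artery wall the balance of both sides is known for its part in remodelling and aneurysm, and macrophages and neutrophils are among the sources of the proteases.

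After removal of barcodes outside the cell filter, the steady state library kept 306 cells with a median of 9105 UMIs and the AngII library 4198 cells with a median of 1092 UMIs. The libraries shared 0 barcodes. Cells were put into classes by the markers they carried, the lineage with the most of its 8 markers detected giving the class. The macrophage gate held 136 cells at steady state (44.4%, median 10328 UMIs) and 2522 on AngII (60.1%, median 1054.5 UMIs), with a median of 8 and 5 of the 8 macrophage markers (*C1qa*, *Adgre1*, *Mrc1* and others) and of at most 2 markers of any other lineage. Such a gate is a range and not a cell type. Of these macrophages, 8 at steady state and 438 on AngII were ahead by 1 marker only. In the whole libraries 15 (4.90%) and 557 cells (13.3%) could not be placed in any class. Macrophages were split once more by 4 further lists into resident (*Lyve1*, *Folr2*, *Cd163*), reparative (*Arg1*, *Spp1*), type-2 (*Ear2*, *Retnla*) and interferon (*Ifit1*, *Isg15*) macrophages. These names stand for the lists. On AngII they held 737, 393, 440 and 125 cells, and 827 fell to no list, while at steady state 117 of the 136 macrophages were resident. A cell with at least 1 *EYFP* UMI was called *Yfp*+. Of the macrophages, 76.5% were *Yfp*+ at steady state and 13.5% on AngII. After each cell was thinned to 1000 UMIs these shares were 15.7% (9.97 to 23.0) and 8.23% (6.81 to 9.83), so that the gap was smaller at equal depth.

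Levels are CPM, the UMIs of a gene summed over a class and scaled to 1000000 UMIs of that class. Every range after a value is its 95% interval, which accounts for counting error alone. Each condition was measured in 1 library, so there was no replicate and no test, and condition, library, animals and depth cannot be told apart. A difference is called higher or lower from 2-fold, in genes with at least 20 UMIs over both groups. Where a group had 0 UMIs, the bound given takes it at 3 UMIs. Because 44.6% of the AngII cells held under 1000 UMIs, shares of cells with a UMI are also given after each cell was thinned to 1000 UMIs.

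Some of the proteases lie near one another in the genome (GRCm38, GENCODE). *Mmp13* (ENSMUSG00000050578.10, chr9:7272514-7283331), *Mmp12* (ENSMUSG00000049723.14, chr9:7344381-7369499) and *Mmp8* (ENSMUSG00000005800.3, chr9:7558456-7568485) all lie on the + strand of chromosome 9. The others are spread out. *Mmp9* (ENSMUSG00000017737.2) is at chr2:164940780-164955850, *Mmp14* (ENSMUSG00000000957.11) at chr14:54431612-54445364, *Mmp19* (ENSMUSG00000025355.7) at chr10:128790910-128800824 and *Adam8* (ENSMUSG00000025473.16) at chr7:139978932-139992562. Of the inhibitors, *Timp1* (ENSMUSG00000001131.11) is at chrX:20870166-20874735, *Timp2* (ENSMUSG00000017466.9) at chr11:118301069-118355740 and *Timp3* (ENSMUSG00000020044.13) at chr10:86300372-86349506.

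RefSeq promoters (GRCm38.p6, from 250 bases before to 50 after the annotated start) were at hand for 8 of the 10 genes. The AP-1 element, the binding site of Fos and Jun proteins known from collagenase promoters, was searched as TGAGTCA or TGACTCA on both strands, and the TATA box as TATAAA on the given strand. *Mmp13* and *Mmp12* held both, *Mmp12* only at the downstream of its annotated starts, whereas the other 6 genes held neither. Of 32851 promoters of the same length, 5.20% held the AP-1 letters, 8.32% the TATA letters and 0.624% both. The neighbours *Mmp13* and *Mmp12* are shown for these letters, and *Mmp14* and *Timp1* because they had the largest ratios between the macrophages of both libraries. Each printed window stops 10 bases after the start, on the + strand, with AP-1 and TATA letters in capitals.
*Mmp13*, chr9:7272264-7272523: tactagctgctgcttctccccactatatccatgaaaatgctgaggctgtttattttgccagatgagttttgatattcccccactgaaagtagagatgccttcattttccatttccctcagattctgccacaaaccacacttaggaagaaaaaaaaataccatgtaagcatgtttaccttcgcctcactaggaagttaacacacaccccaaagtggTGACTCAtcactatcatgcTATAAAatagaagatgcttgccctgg
*Mmp12*, chr9:7347124-7347383: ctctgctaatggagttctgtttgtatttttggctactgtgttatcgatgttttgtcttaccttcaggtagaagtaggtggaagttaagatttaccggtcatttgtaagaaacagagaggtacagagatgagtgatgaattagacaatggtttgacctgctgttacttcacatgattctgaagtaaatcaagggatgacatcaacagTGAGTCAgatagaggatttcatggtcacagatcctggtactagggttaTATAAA
*Mmp14*, chr14:54431348-54431607: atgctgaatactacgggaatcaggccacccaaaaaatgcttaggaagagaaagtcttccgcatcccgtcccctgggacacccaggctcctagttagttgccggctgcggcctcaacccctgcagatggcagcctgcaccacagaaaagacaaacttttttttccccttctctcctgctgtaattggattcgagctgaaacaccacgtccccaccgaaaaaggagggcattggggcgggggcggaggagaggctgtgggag
*Timp1*, chrX:20869916-20870175: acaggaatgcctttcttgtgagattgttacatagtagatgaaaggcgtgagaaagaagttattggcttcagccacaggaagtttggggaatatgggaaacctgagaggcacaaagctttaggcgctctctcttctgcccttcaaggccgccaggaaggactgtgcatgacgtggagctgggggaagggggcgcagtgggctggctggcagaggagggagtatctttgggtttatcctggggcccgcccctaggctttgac
Counted from the start as 0, the AP-1 letters begin at position -35 in *Mmp13* and -44 in *Mmp12*, and the TATA letters at position -16 in *Mmp13* and 4 in *Mmp12*. The windows of *Mmp14* and *Timp1* have 55.8% and 54.2% G and C, against 41.5% for *Mmp13* and 38.5% for *Mmp12*. A match of letters is no proof of a binding site.

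Macrophages of the AngII library had more *Mmp14*, *Timp1*, *Mmp12*, *Adam8* and *Mmp8* and less *Mmp9* and *Timp2* than macrophages of the steady state library. Of the 10 genes, 9 had enough UMIs, and 5 of them were at least 2 times higher and 2 at least 2 times lower. The call for *Mmp8* rested on 23 UMIs against 1, with an interval that includes no difference. The call was lost without the top cell of each library (1.35 times), where steady state had 0 UMIs and was taken at 3. Among all 11632 genes compared in the same way, 8.22% were higher and 9.38% were lower. The median log2 ratio was 1.67 for the 9 members and -0.03 for all genes. In resident macrophages, where the mix of states differs less, 8 genes could be compared, of which *Mmp12*, *Mmp14*, *Mmp19*, *Adam8* and *Timp1* were higher (5, with 7.09% of all 10055 genes) and *Mmp9* and *Mmp13* lower (2, with 7.41% of all genes).

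**Figure D1:**
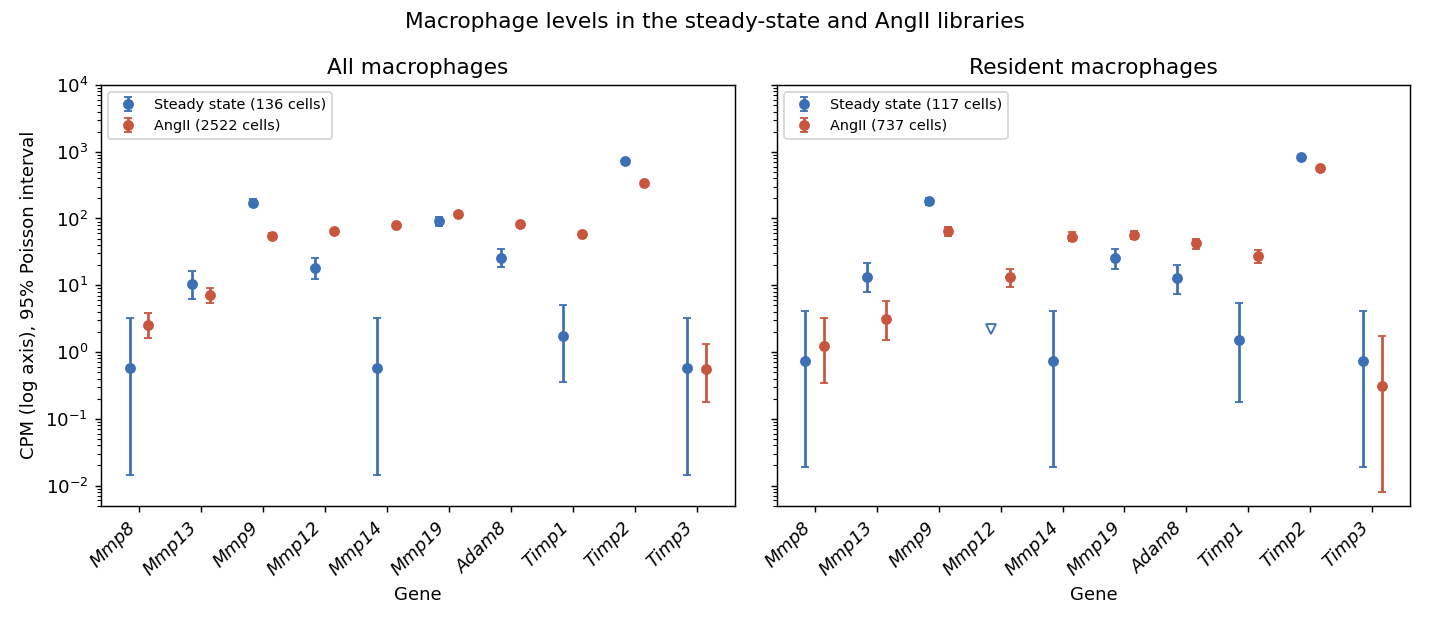
CPM (log axis) of the 10 genes in all macrophages (left) and resident macrophages (right) of the steady state (blue) and AngII (red) libraries, with 95% Poisson intervals; an open triangle marks 0 UMIs, drawn at the level of 3 UMIs. *Mmp14* lies at 0.576 and 80.7 CPM and *Timp1* at 1.73 and 57.8 CPM in all macrophages, while *Mmp9* and *Timp2* lie lower on AngII in both panels.

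Collagenases. *Mmp8*, the neutrophil collagenase, which cuts fibrillar collagen, was close to absent from macrophages. It had 1 UMI in the 136 steady state macrophages (0.576 CPM) and 23 UMIs in the 2522 AngII macrophages (2.56 CPM, 1.62 to 3.85), a ratio of 4.45 (0.723 to 183). The summed neutrophil markers were also higher in AngII macrophages (928 against 414 CPM), and their part in the *Mmp8* counts was not tested. It was found in AngII classical monocytes at 74.1 CPM (59.9 to 90.6; 95 UMIs, 19.4% of 186 cells) and in neutrophils at 64.3 CPM (45.5 to 88.3; 7.35% of 204 cells). Both classes thus exceeded macrophages, 28.9 times (18.2 to 47.8) and 25.1 times (14.6 to 44.1), and did not differ from each other beyond counting error (1.15 times, 0.783 to 1.72). One monocyte held 19 of the UMIs, and monocytes stood at 60.0 CPM without it. After thinning, the shares of cells were 4.10% and 5.71%, so that the lead of monocytes in the share of cells was not seen at equal depth. T and B cells of the AngII library had 0 UMIs, which allows up to 2.36 and 7.02 CPM.

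*Mmp13*, the other collagenase, was rare and uneven. At steady state it had 18 UMIs in macrophages (10.4 CPM, 6.14 to 16.4), all of them in resident macrophages (13.4 CPM, 8.55% of 117 cells). On AngII the macrophages had 64 UMIs (7.13 CPM, 5.49 to 9.11), which gave a ratio of 0.688 (0.403 to 1.23). Resident macrophages alone had 10 UMIs on AngII (3.14 CPM), and the ratio there was 0.233 (0.0963 to 0.533). Of the AngII macrophage UMIs, 20 and 16 came from 2 interferon macrophages, which set the 38.1 CPM of that class. The B cell gate at steady state reached 36.3 CPM through 1 cell with 11 UMIs, which carried 8 B cell and 7 macrophage markers.

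Gelatinase. *Mmp9* encodes gelatinase B, which cuts denatured collagen and basement membrane and is stored in neutrophil granules. Neutrophils of the AngII library had by far the most, with 814 UMIs in 204 cells, 1378 CPM (1285 to 1476) and a UMI in 62.3% of cells. After thinning the share was 56.4%. That was 25.2 times (22.5 to 28.3) the level of AngII macrophages, and no other named class exceeded 70.1 CPM. T cells had 2.36 CPM (1.15% of 260 cells, median 1260.5 UMIs) and B cells had 0 UMIs. The 3 neutrophils of the steady state library were too few for a comparison.

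Macrophages contained *Mmp9* too, and here the steady state library was higher. It had 299 UMIs in 136 steady state macrophages (172 CPM, 153 to 193, 42.6% of cells) and 490 UMIs in 2522 AngII macrophages (54.6 CPM, 49.9 to 59.6, 8.68% of cells). The ratio was 0.317 (0.274 to 0.368), and in resident macrophages 0.353 (0.291 to 0.427). Thinned to equal depth, 14.9% of steady state and 5.46% of AngII macrophages had a UMI. No single cell carried this, since the highest held 16 of the 299 UMIs at steady state. Within the AngII library *Mmp9* was at 70.1 CPM in reparative, 64.0 CPM in resident and 19.8 CPM in type-2 macrophages, where reparative and resident cells did not differ beyond counting error (1.10 times, 0.862 to 1.39) and type-2 cells were 0.309 times resident cells (0.199 to 0.463). One reparative cell held 41 of that class's 112 UMIs. The neutrophil markers summed to 414 CPM in steady state and 928 CPM in AngII macrophages, and their part in the *Mmp9* counts was not tested.

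Metalloelastase. *Mmp12*, the macrophage elastase, which cuts elastin fibres, was hardly found at steady state. Its 32 UMIs in steady state macrophages (18.4 CPM) came from 1 cell, and resident macrophages had 0 UMIs. AngII macrophages had 578 UMIs in 6.94% of cells (64.4 CPM, 59.3 to 69.9). The ratio of 3.50 (2.45 to 5.16) was therefore set by that 1 steady state cell, and it was 33.2 without the top cell of each library (steady state then taken at 3 UMIs). In resident macrophages the AngII level was at least 5.88-fold higher.

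Among AngII classes *Mmp12* was a gene of type-2 and interferon macrophages. It reached 157 CPM (132 to 184) in interferon macrophages, where 18 of 125 cells had a UMI, and 146 CPM (126 to 167) in type-2 macrophages, where 12.5% of cells had one. Reparative macrophages had 41.3 CPM and resident macrophages 13.2 CPM (9.49 to 17.8). Type-2 exceeded resident macrophages 11.1 times (7.89 to 15.8). The order at the top rested on few cells, and with the top cell of each class left out type-2 macrophages led at 111 CPM. A further 214 UMIs, 20.1% of all *Mmp12* UMIs of the library, sat in 1 unplaced cell. Neutrophils had 1 UMI, migratory dendritic cells and B cells had 0, and T cells had 18 UMIs (14.2 CPM), of which 1 cell held 15.

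Membrane-type protease. *Mmp14* encodes MT1-MMP, a collagenase of the cell surface that activates proMMP2. All 306 steady state cells together had 2 UMIs, 1 of them in macrophages (0.576 CPM, 0.0146 to 3.21). AngII macrophages had 724 UMIs in 327 of 2522 cells (80.7 CPM, 74.9 to 86.8), a ratio of 140.1 with an interval of 25.1 to 5543. This ratio rests on that lone steady state UMI, and it was 45.1 without the top cell of each library (steady state then taken at 3 UMIs). In resident macrophages the counts were 1 and 170 UMIs (0.746 and 53.3 CPM), and the ratio was 71.4 (12.6 to 2838). At equal depth 0 of 134 steady state and 6.58% of AngII macrophages had a UMI. The level on AngII was 86.0 CPM in macrophages with 2000 UMIs or more and 58.3 CPM in shallower ones. The stromal markers, collagens among them, summed to 6.33 CPM in steady state macrophages (4 of 8 markers detected) and 12.3 CPM in AngII macrophages (7 of 8, *Pdgfra* at 0), and their part in the *Mmp14* difference was not tested.

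Reparative macrophages led in *Mmp14* on AngII, with 167 CPM (148 to 188) in 25.2% of cells, or 14.6% after thinning. They were 3.13 times (2.58 to 3.82) above resident macrophages at 53.3 CPM and 4.76 times (3.49 to 6.61) above type-2 macrophages at 35.1 CPM. Interferon macrophages (71.9 CPM), classical monocytes (60.8 CPM), migratory dendritic cells (51.3 CPM) and neutrophils (37.2 CPM) lay between or near these. Type-1 dendritic cells were low with 7.47 CPM from 12 UMIs, and the 20 mast cells had 0 UMIs, which allows up to 108 CPM. T cells had 55.2 CPM (43.0 to 69.7; 13.8% of cells, 5.77% after thinning) against 14.0 CPM in B cells (2.04% of 98 cells, median 3954 UMIs), a ratio of 3.93 (1.72 to 11.1). The macrophage markers had 994 UMIs in the T cell gate. *Mmp14* was at 26.3 CPM (3.18 to 94.9; 2 UMIs) in the 36 T cells without any macrophage marker, at 61.3 CPM (46.9 to 78.7) in the 180 with 1 or 2 and at 35.4 CPM (14.2 to 72.9; 7 UMIs) in the 44 with 3 or more. These intervals overlap, and with 2 and 7 UMIs in the outer groups the counts cannot show whether the level follows the macrophage markers. The part of macrophage RNA in the *Mmp14* of this gate was not tested.

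**Figure D2:**
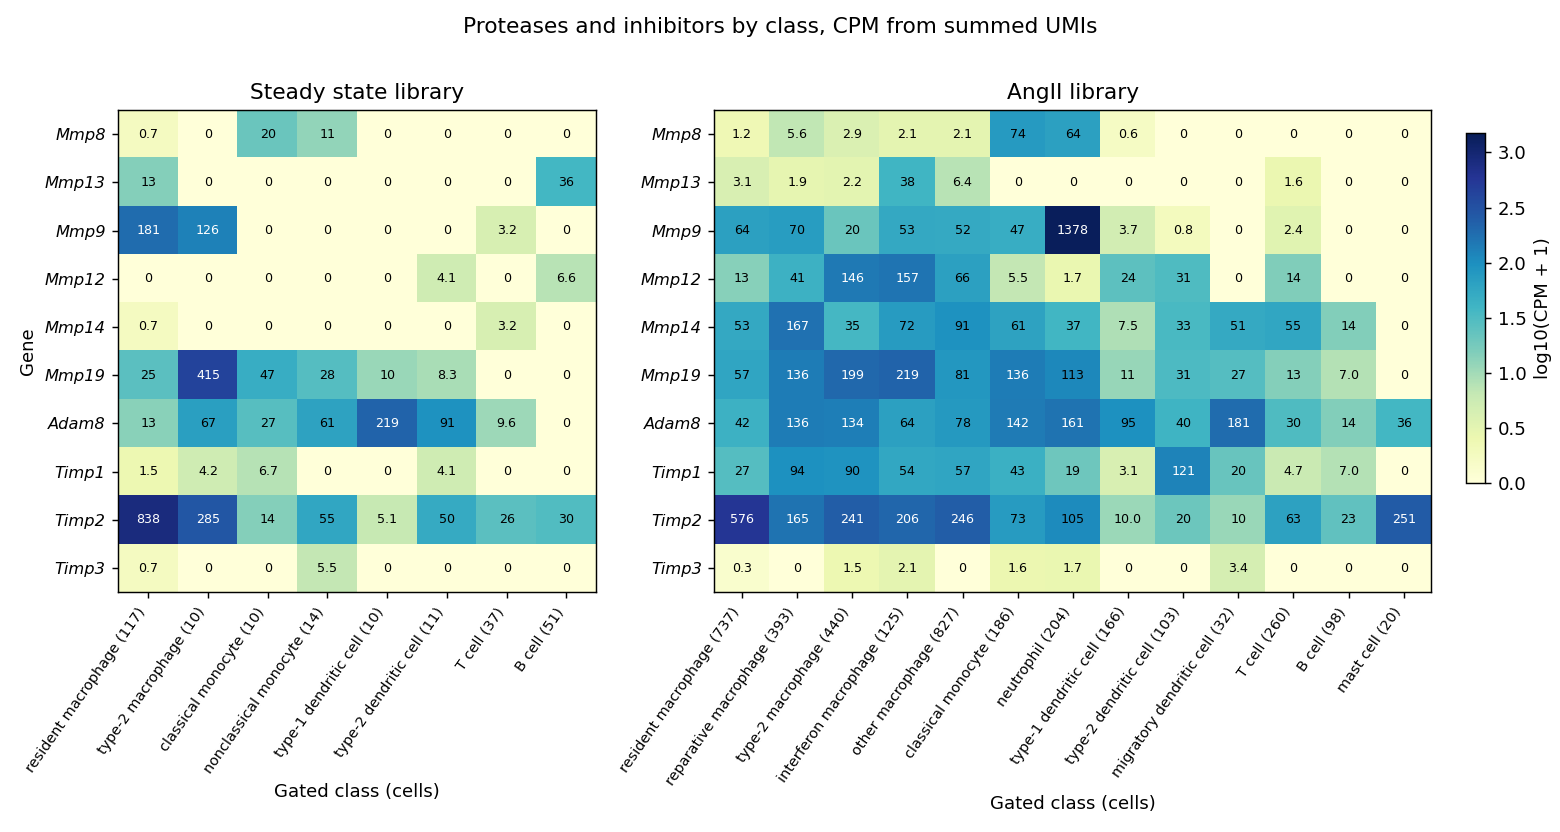
CPM of the 10 genes in the classes of each library, coloured by log10(CPM + 1), with the number of cells after each class. Neutrophils stand out for *Mmp9* (1378 CPM), reparative macrophages for *Mmp14* (167 CPM) and resident macrophages for *Timp2* (576 CPM on AngII, 838 CPM at steady state).

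*Mmp19*, a secreted protease of basement membrane and cartilage matrix proteins, was present in both libraries. It had 157 UMIs in steady state macrophages (90.4 CPM, 76.8 to 106) and 1029 in AngII macrophages (115 CPM, 108 to 122), a ratio of 1.27 (1.07 to 1.51). One steady state type-2 macrophage held 79 of the 157 UMIs, and without the top cell of each library the ratio was 2.25, past the 2-fold line. Resident macrophages, which lack that cell, gave 25.4 and 56.8 CPM and a ratio of 2.24 (1.54 to 3.33).

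On AngII, *Mmp19* was highest in interferon macrophages (219 CPM, 190.2 to 251) and type-2 macrophages (199 CPM, 176 to 224; 25.5% of cells). A single cell held 112 of the 207 UMIs of the interferon class. With the top cell of each class left out, type-2 macrophages led at 162 CPM. Classical monocytes and reparative macrophages followed with 136 CPM each, then neutrophils with 113 CPM, of whose 67 UMIs 37 came from 1 cell, and resident macrophages with 56.8 CPM. Type-2 exceeded resident macrophages 3.51 times (2.89 to 4.25). T and B cells were low with 13.4 and 7.02 CPM.

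*Adam8* encodes a disintegrin and metalloproteinase of the leukocyte membrane that sheds surface receptors. It was found in many myeloid classes of both libraries. At steady state it was at 381 CPM (124 to 890.1) in the 3 neutrophils, on 5 UMIs, and at 219 CPM (158 to 295) in type-1 dendritic cells, where 9 of 10 cells had it. Unplaced cells (101 CPM, 7 of 15 cells), type-2 dendritic cells (90.9 CPM), type-2 macrophages (67.1 CPM) and nonclassical monocytes (60.9 CPM) came next, while all macrophages together had 25.9 CPM (18.9 to 34.7). AngII type-1 dendritic cells had 95.2 CPM, and macrophages had 742 UMIs and 82.7 CPM (76.8 to 88.8). The ratio of AngII to steady state was thus 0.435 (0.308 to 0.625) in type-1 dendritic cells and 3.19 (2.36 to 4.41) in macrophages. In type-1 dendritic cells 2 steady state cells held 15 and 14 of the 43 UMIs. Without the 2 top cells of each library, type-1 dendritic cells were at 97.3 CPM at steady state and 87.5 CPM on AngII, and the ratio of 0.899 (0.518 to 1.69) included no difference. This takes out 2 of 10 steady state but only 2 of 166 AngII cells, which lowers steady state more. It therefore cannot show whether the difference rests on those cells. In resident macrophages the ratio was 3.34 (2.01 to 5.90).

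The AngII classes with most *Adam8* lay close together. Migratory dendritic cells had 181 CPM (136 to 237; 43.8% of 32 cells), neutrophils 161 CPM (130.1 to 197), classical monocytes 142 CPM (122 to 164), reparative macrophages 136 CPM (118 to 155) and type-2 macrophages 134 CPM (115 to 155). These 5 intervals overlap, and the order among neighbours is not settled by the counts. Resident macrophages were lower with 42.3 CPM (35.5 to 50.1), and reparative cells exceeded them 3.21 times (2.58 to 4.01). T cells had 29.9 CPM and B cells 14.0 CPM.

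Inhibitors. *Timp1*, the inhibitor that cytokines induce in many tissues, was likewise hardly found at steady state. Steady state macrophages had 3 UMIs (1.73 CPM, 0.356 to 5.05) and AngII macrophages 519 UMIs in 8.13% of cells (57.8 CPM, 53.0 to 63.0). The ratio was 33.5 (11.4 to 163), an interval that overlaps that of *Mmp14*, and 92.6 without the top cell of each library, so the order of both genes by their gap is not settled. It was 18.3 (4.91 to 153) in resident macrophages with 2 and 87 UMIs. At equal depth 0 of 134 steady state and 3.81% of AngII macrophages had a UMI. As for *Mmp14*, the deeper AngII macrophages had more (62.8 against 36.9 CPM), and the summed stromal markers were higher on AngII.

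Type-2 dendritic cells were the class with most *Timp1* on AngII, at 121 CPM (102 to 143) and with a UMI in 25.2% of 103 cells. They exceeded macrophages 2.10 times (1.73 to 2.53), and only 1 UMI of the stromal list was found in them. One cell, with 44209 UMIs, held 28 of their 143 *Timp1* UMIs, and 43 of the 103 cells were ahead by 1 marker only. Their median depth was 13194 UMIs, and after thinning 7.79% had a UMI. Type-1 dendritic cells had 3.11 CPM (1.01 to 7.26), or 0.0256 times the level of type-2 dendritic cells (0.00820 to 0.0612). Among macrophages, reparative (94.5 CPM, 80.0 to 111) and type-2 cells (90.0 CPM, 74.8 to 107) did not differ beyond counting error, and both exceeded resident cells at 27.3 CPM, 3.46 times (2.64 to 4.56) and 3.30 times (2.49 to 4.39). T and B cells had 4.73 and 7.02 CPM.

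*Timp2*, which blocks the enzymes and also takes part in the activation of proMMP2 by MT1-MMP, was the most counted of the 10 genes in macrophages of both libraries. It marked resident macrophages, with 1122 UMIs at steady state (838 CPM, 789 to 888, 94.0% of 117 cells) and 1836 UMIs on AngII (576 CPM, 549.8 to 603, 51.4% of 737 cells). After thinning the shares were 49.1% and 36.3%. The ratio of AngII to steady state was 0.688 (0.638 to 0.741) in resident macrophages and 0.478 (0.447 to 0.511) in all macrophages (344 against 719 CPM), so that only the second was past the 2-fold line. Other macrophage states of the AngII library were lower, with 241 CPM in type-2, 206 CPM in interferon and 165 CPM in reparative cells. Resident exceeded reparative macrophages 3.49 times (3.06 to 3.98). Dendritic cells had 19.5 CPM or less, T cells 63.0 CPM (52 of 260 cells) and B cells 23.4 CPM (6 of 98 cells). The 251 CPM of mast cells stood for 7 UMIs in 20 cells.

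*Timp3*, an inhibitor that is bound to the matrix and is known from stromal cells, was hardly found in CD45+ cells. At steady state 9 of its 11 UMIs came from the only cell gated as stromal. On AngII 10 UMIs (0.555 CPM, 0.266 to 1.02) were spread over the kept cells, 5 of them in macrophages. No comparison was possible.

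**Figure D3:**
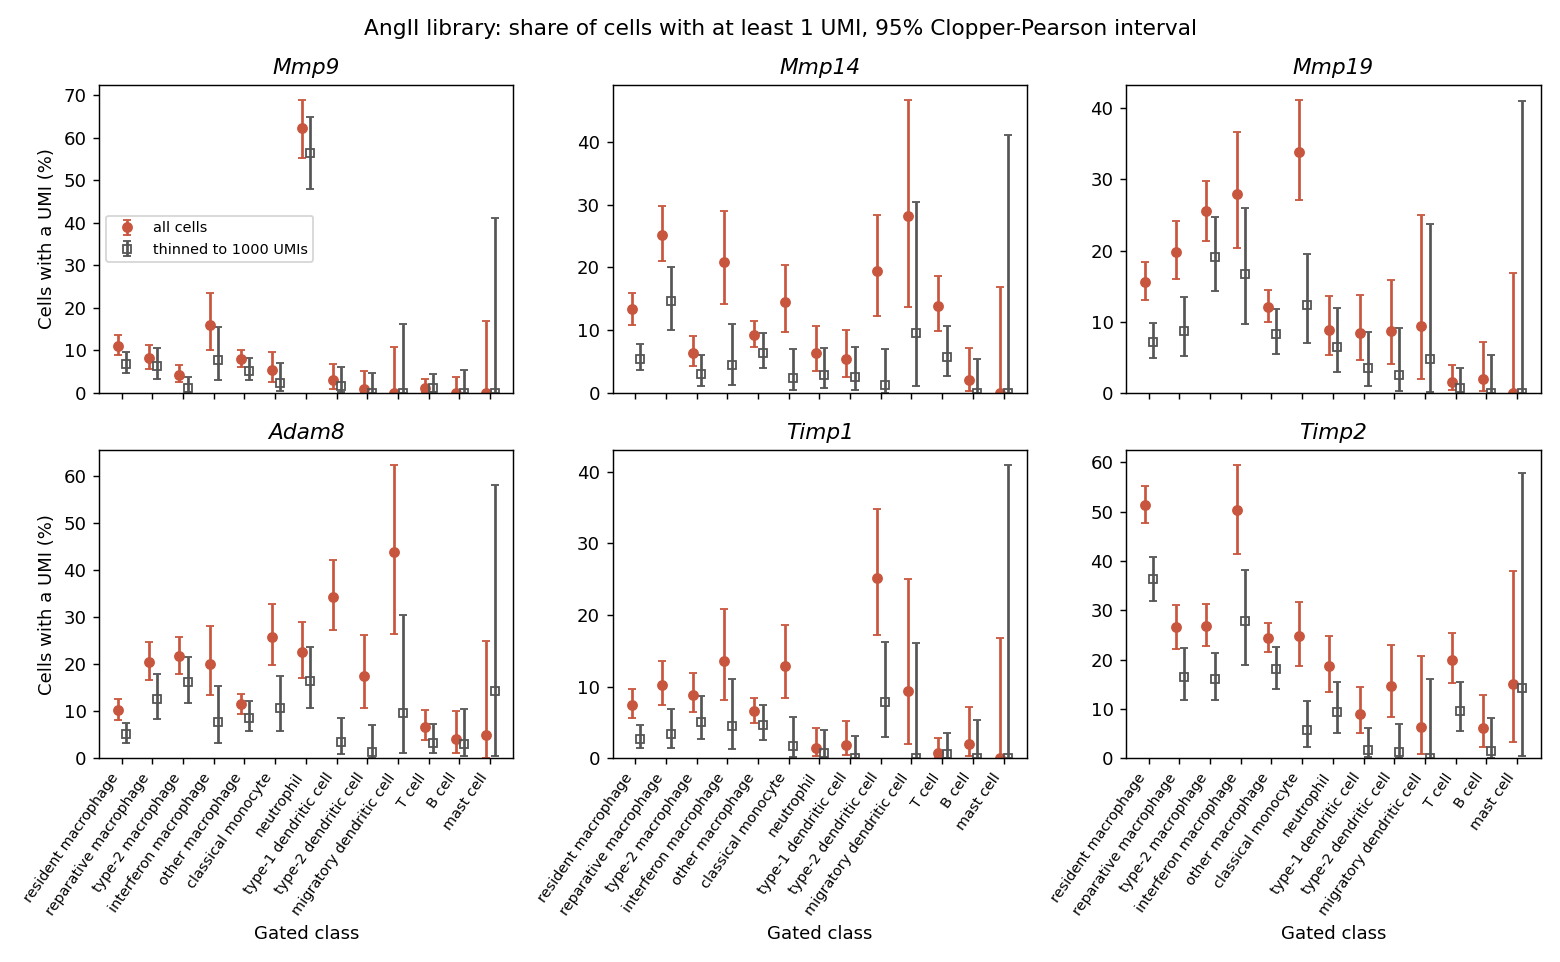
Share of cells with at least 1 UMI (%) of 6 of the genes by class in the AngII library, at full depth (red) and after thinning to 1000 UMIs (grey squares), with 95% Clopper-Pearson intervals. The share for *Mmp9* in neutrophils stays high after thinning (62.3% and 56.4%), while that for *Timp1* in type-2 dendritic cells drops from 25.2% to 7.79%.

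Summed over the family, the balance of inhibitor to protease UMIs differed between the macrophage states. In macrophages the inhibitor sum was mostly *Timp2*, with 1250 of 1254 UMIs at steady state and 3087 of 3611 on AngII. These ratios are therefore not independent of the *Timp2* levels given above. Counting at the 3′ end gives 1 UMI per transcript whatever its length, but the sums weigh each gene by how well it was captured and say nothing of enzyme activity. In macrophages the 3 inhibitors had 2.27 times (2.05 to 2.51) the UMIs of the 7 proteases at steady state and 0.989 times (0.945 to 1.04) on AngII. Resident macrophages had more inhibitor than protease UMIs in both libraries, 3.58 times (3.16 to 4.07) and 2.58 times (2.37 to 2.81). Their protease sum was 234 CPM in each library, with the genes in different shares, *Mmp9* giving 243 of 314 UMIs at steady state and 204 of 746 on AngII. Their inhibitor sum was 839.8 CPM at steady state and 603 CPM on AngII. Reparative (0.466), type-2 (0.618) and interferon macrophages (0.434), macrophages of no list (0.807) and classical monocytes (0.253) of the AngII library had fewer inhibitor than protease UMIs. Neutrophils had a protease sum of 1756 CPM, an inhibitor sum of 125 CPM and a ratio of 0.0714 (0.0556 to 0.0904). Type-1 dendritic cells had an overlapping interval, with 0.0921 (0.0559 to 0.144) on AngII. At steady state they were at 0.0222 on 1 inhibitor UMI. On AngII, migratory dendritic cells were at 0.132 and type-2 dendritic cells at 1.04 (0.830 to 1.30).

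**Figure D4:**
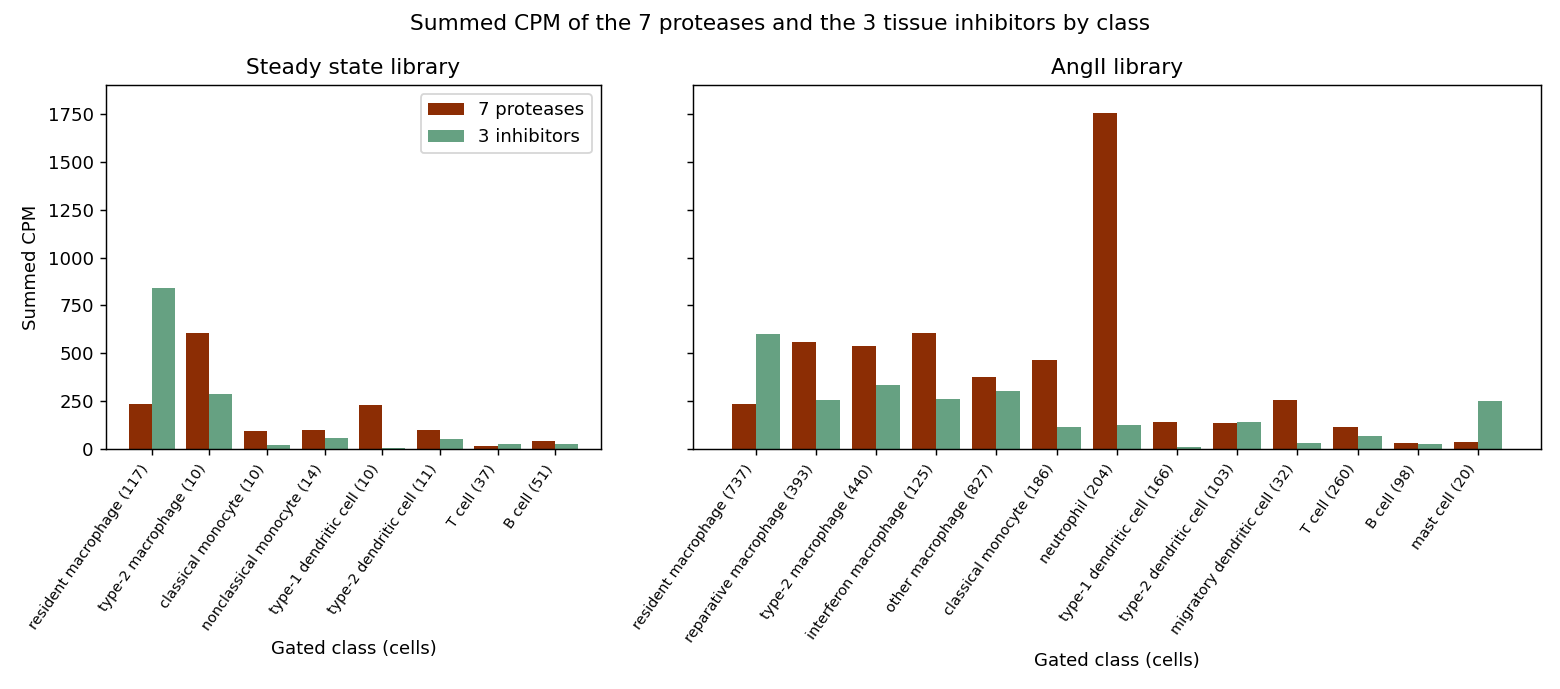
Summed CPM of the 7 proteases (brown) and the 3 inhibitors (green) by class, with the number of cells, at steady state (left) and on AngII (right). Inhibitors exceed proteases in resident macrophages of both libraries, and AngII neutrophils show the highest protease sum (1756 CPM).

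The lineage label split the macrophages differently in the 2 libraries. At steady state 104 *Yfp*+ macrophages (median 11432 UMIs) were set against 32 *Yfp*- ones (median 5770.5 UMIs). Of the 10 genes 5 had enough UMIs, and 2 were higher in *Yfp*+ cells (8.32% of all 7812 genes were) and 0 lower (4.62%). *Mmp19* was 2.09 times higher (1.13 to 4.28; 97.3 against 46.5 CPM) and *Adam8* 2.20 times (0.704 to 11.1; 42 against 3 UMIs), an interval that includes no difference. The cell with 79 of these *Mmp19* UMIs was among those compared, and with the top cell of each side left out the ratio was 4.98. *Timp2* was at 1.19 times, and its interval reached from no difference up to 1.42. *Mmp9* was at 0.731 times in *Yfp*+ cells, with an interval from 0.541 up to no difference, and in resident macrophages at 0.495 times (0.363 to 0.684; 161 against 326 CPM).

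On AngII, 340 *Yfp*+ macrophages (median 4890 UMIs) were set against 2182 *Yfp*- ones (median 970.5 UMIs). Of 9 genes with enough UMIs, 0 were higher in *Yfp*+ cells (2.36% of all 11178 genes were) and 2 were lower (3.09%). These were *Mmp19* with 0.351 times (0.295 to 0.415; 52.1 against 148 CPM) and *Mmp8* with 0.277 times (0.0528 to 0.935; 3 against 20 UMIs). Most other proteases and *Timp1* were lower by less than 2-fold, with *Adam8* at 0.588 (0.494 to 0.697), *Timp1* at 0.650 (0.530 to 0.793), *Mmp12* at 0.702 (0.581 to 0.844), *Mmp14* at 0.781 (0.663 to 0.918) and *Mmp9* at 0.792 (0.649 to 0.964). *Timp2* was higher, 1.59 times (1.48 to 1.71; 453 against 285 CPM). *Mmp13* was higher as well, 1.97 times (1.17 to 3.32), on 33 and 31 UMIs.

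Resident cells were more common among *Yfp*+ macrophages, 174 of 340 against 563 of 2182, so the comparison was repeated within them. There *Timp2* differed little (1.11 times, 1.01 to 1.22), *Adam8* (0.863, 0.607 to 1.23) and *Timp1* (1.19, 0.761 to 1.88) had intervals that include no difference, and *Mmp19* was at 0.517 times (0.378 to 0.704) and *Mmp14* at 0.680 times (0.496 to 0.929). *Mmp12* was at 0.250 times (0.110 to 0.522; 10 against 32 UMIs), past the 2-fold line. Depth differed between *Yfp*+ and *Yfp*- cells. Each cell was therefore thinned to 1000 UMIs, with the class and the *Yfp* call kept from full depth and shallower cells left out. The ratio in all AngII macrophages was then 0.651 for *Mmp19*, 0.539 for *Mmp12*, 0.652 for *Mmp14* and 1.68 for *Timp2*. These directions were those seen before thinning, while *Mmp19* no longer passed the 2-fold line. Because the *Yfp* call itself was not thinned, the part of depth in that call was not tested.

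**Figure D5:**
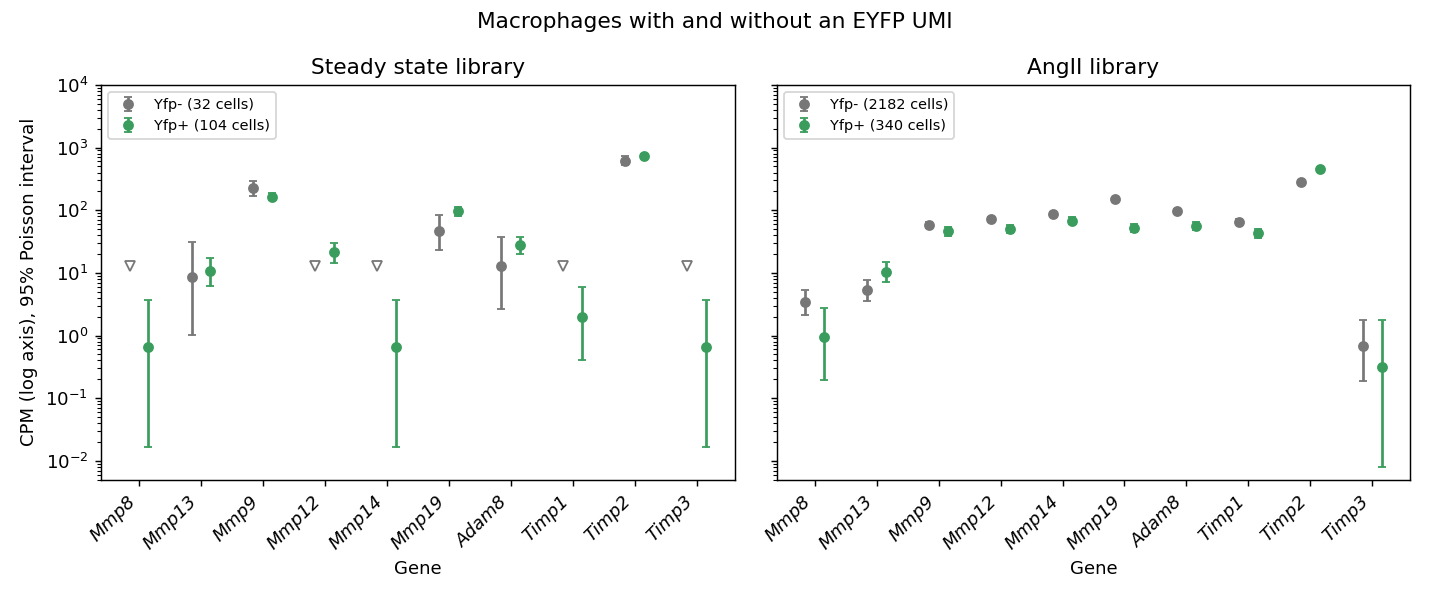
CPM (log axis) of the 10 genes in *Yfp*- (grey) and *Yfp*+ (green) macrophages at steady state (left) and on AngII (right), with 95% Poisson intervals; open triangles mark 0 UMIs, drawn at the level of 3 UMIs. On AngII *Mmp19* lies at 148 CPM in *Yfp*- and 52.1 CPM in *Yfp*+ macrophages, and *Timp2* at 285 and 453 CPM.

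Of 38 other metalloproteinases, inhibitors, disintegrin metalloproteinases and activators or partners, 15 could be compared between the macrophages of both libraries. *Lcn2*, which encodes the lipocalin that binds MMP9, was higher on AngII with 36 UMIs against 1 (6.97 times, 1.17 to 283). Its highest level in any class was that of AngII neutrophils (223 CPM), and the neutrophil markers, too, were higher in AngII macrophages (928 against 414 CPM), whose part in this difference was not tested. Among the genes lower on AngII was *Plau*, which encodes urokinase, an activator of plasminogen, at 14.0 CPM on AngII and 28.8 CPM at steady state (0.488 times, 0.349 to 0.691). *Adam19* was at 0.447 times (0.368 to 0.543) and the membrane-anchored *Mmp25* at 0.356 times (0.214 to 0.605). Under 2-fold stayed 10 genes. By list, 1 of 14 other metalloproteinases could be compared and 0 of 3 other inhibitors, against 5 of 10 disintegrin metalloproteinases and 9 of 11 activators and partners. The highest levels in any class were those of *Cd63*, which encodes a tetraspanin that binds TIMP1, in mast cells (1399 CPM from 39 UMIs), of *Cd44*, which encodes a hyaluronan receptor that can hold MMP9 at the cell surface, in neutrophils (939.7 CPM), and of *Lrp1*, which encodes an endocytic receptor that clears proteases, in reparative macrophages (422 CPM).

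The pattern over the 13 AngII classes of at least 20 cells was compared with that of 9618 genes by Pearson's r of log2(CPM + 10). The classes come from 1 library and share its depth and free RNA, so r is a description. Most like *Mmp9* were *Csf3r* (0.981), itself a marker used for the neutrophil gate, *Cstdc4* (0.974) and *6030400A10Rik* (0.972), and most like *Mmp8* were *Cd177* (0.987), *Dgat2* and *Dgkg* (0.934 each). *Timp2* ran with *Klhl9* (0.960), *Ctsd* (0.942) and *Ccl7* (0.929), and *Mmp19* with *Pla2g4a* (0.932), *2310022A10Rik* (0.929) and *Dpep2* (0.926). For *Mmp14* these were *Ppard* (0.895), *1700017B05Rik* (0.883) and *Spg20* (0.880), for *Adam8* *Anxa2* (0.883), *Cnih4* (0.841) and *Tbc1d20* (0.840), for *Timp1* *Sh2d1b1* (0.877), *Iffo2* (0.872) and *Ptpro* (0.870), and for *Mmp12* *Celf4* (0.863), *Tmem107* (0.859) and *Ifi44* (0.849). No member was among the 3 nearest of another.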

How the data were processed

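CD45+ cells of the adventitia were profiled in 2 libraries, 1 per condition. The authors mapped the reads with Cell Ranger 3.1.0 to GRCm38.p6 with the GENCODE M24 annotation and the eYFP sequence, and deposited raw UMI counts per gene and cell barcode (346 barcodes with 4009678 UMIs at steady state, 4419 with 20481854 on AngII), without normalization. The authors' normalization, clusters and other experiments were not used here. The study gives the same numbers of cells as there are barcodes, while its stated filter (300 to 6500 genes, at most 5% mitochondrial reads), applied here to UMIs, left 306 and 4198.

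A cell was assigned to the lineage with most of its 8 markers detected, out of 14 lists, with at least 2 markers and no tie. Macrophages were split likewise by 4 lists. No member and no pathway gene was a marker. Doublets were left in, and cells with at least 3 markers of a second lineage were removed in an alternative. The members, marker lists, pathway lists and comparisons were chosen with earlier results of these data known. Named are all members, pathway genes past 2-fold between the macrophages of both libraries or among the 3 highest in any class, and the 3 genes most like each member with at least 100 UMIs on AngII. Of these, 1 pathway gene is not reported here.

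Counts were summed per class. Levels carry exact Poisson, ratios exact conditional and shares Clopper-Pearson intervals at 95%, and a count of 0 was taken at 3 UMIs. All cover counting error only. No p-value was computed. The code was tested on simulated data. Alternatives were the cell filter, marker minimum, second-lineage cells, thinning to 1000 or 500 UMIs (macrophages left out at 1000 were 2 at steady state and 1185 on AngII), the mean of cells' CPM, leaving out the top cell, subtracting lymphocyte levels, other thresholds, and graph clusters (SCTransform with mitochondrial share regressed out, members left out, 20 components, resolution 0.4). A limit to cells of 2000 UMIs or more was added after seeing the data. Tools were Python 3.11.15, NumPy 2.4.6, SciPy 1.17.1, pandas 2.3.3, Matplotlib 3.10.9, R 4.3.3, Seurat 5.3.0, sctransform 0.4.2 and Matrix 1.6.5. Gene positions are from GENCODE M21 (GRCm38), with the same gene versions as in the count tables.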

Additional observations from a re-analysis of the deposited data

Results flagged for a closer look

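In 2 genes the *Yfp*+ and *Yfp*- macrophages differed in opposite directions at steady state and on AngII. *Mmp19* was 2.09 times higher in *Yfp*+ macrophages at steady state and 0.351 times as high on AngII. For *Mmp12* the steady state ratio was at least 1.68, because *Yfp*- macrophages had 0 UMIs, and the AngII ratio was 0.702. All 32 *Mmp12* UMIs at steady state came from 1 cell. With 1 library per condition the difference between the conditions was not tested.

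A signal of *Timp3* lay outside the cells that were compared. One AngII barcode, left out because its 6926 detected genes were over the limit of 6500, held 135 of the 146 *Timp3* UMIs of the library (92.5%). It had 36334 UMIs, all 8 macrophage markers, 6 of the 8 stromal markers and 402 UMIs of the stromal list. Whether it was 1 cell or several was not tested.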

How the results depend on the processing

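No paired analysis was possible because each condition had 1 library, and no replicate could be left out for the same reason. Of 99 AngII to steady state ratios recomputed under alternatives, 61 stayed within the counting interval, 37 moved and 1 turned, and of 161 *Yfp* ratios 119 stayed, 34 moved and 8 turned. Of 200 recomputed macrophage levels 88 moved, and in 55 of 200 cases another class became the highest for a gene. Over the alternatives the AngII to steady state ratio in macrophages ran from 1.22 to 177 for *Mmp14*, from 0.971 to 92.6 for *Timp1*, from 1.44 to 41.4 for *Mmp12*, from 2.70 to 15.6 for *Adam8*, from 0.220 to 3.45 for *Mmp13*, from 0.167 to 0.440 for *Mmp9* and from 0.368 to 0.688 for *Timp2*. The main interval of *Mmp13* included no difference, and its ratio passed to the higher side with lymphocyte levels subtracted. At steady state that lymphocyte level came from 1 B cell with 11 UMIs and 7 macrophage markers. Subtracting it left steady state macrophages with no *Mmp13*, taken at 3 UMIs, so this change of side is by construction. Thinning to 500 UMIs left 1 of the 5 higher genes (*Adam8*). It gave the low ends of 1.22 for *Mmp14* and 1.44 for *Mmp12* and turned *Timp1* to 0.971. All 3 values are by construction, since steady state then had 0 UMIs of each gene and was taken at 3. Without the top cell of each library 5 genes were higher, with *Mmp19* (2.25) in and *Mmp8* (1.35) out, and *Mmp14* stood at 45.1. Their lone steady state UMI of *Mmp8* and of *Mmp14* was then gone, and steady state was taken at 3 UMIs for both. In cells of 2000 UMIs or more 1 of the 2 lower genes was left (*Mmp9*), *Timp2* being at 0.503 and thus just short of the line. Chosen after seeing the data, the ratio of *Adam8* in type-1 dendritic cells was 0.564 without 1 and 0.899 without 2 top cells of each library. This takes a larger part of the 10 steady state than of the 166 AngII cells.

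The counts by *Yfp* were less stable. Where cells were thinned, the *Yfp* call was still that made at full depth. At steady state the 2 higher genes became 1 with at least 1000 detected genes, without cells of a second lineage, with graph clusters or without the top cell. After thinning to 1000 or 500 UMIs they became 0. At 1000 UMIs only 3 of 134 steady state macrophages had a UMI of *Mmp19* and 1 had one of *Adam8*. That was too few for a call, which needs at least 20 UMIs, so the thinned cells cannot show whether these differences shrank. The 0 lower genes became 1 with graph clusters (*Mmp13*) or without the top cell (*Mmp12*). For *Mmp12* this was by construction, since both sides then had 0 UMIs and were taken at 3. On AngII the 0 higher genes became 1 (*Mmp13*) with the mean of cells' CPM or with lymphocyte levels subtracted. The 2 lower genes became 1 (*Mmp19*) with at least 1000 detected genes or 2000 UMIs and 0 after thinning to 1000 or 500 UMIs. For *Mmp19* the ratio itself fell short of the 2-fold line, at 0.651 after thinning to 1000 UMIs. *Mmp8* was at 0.387 times or lower in each of the 7 alternatives with enough UMIs. Its call was thus lost for lack of UMIs and not by a smaller difference. Single ratios that turned were *Mmp12* at steady state (0.531 by the mean of cells' CPM, 0.152 without the top cell), *Timp2* at steady state (0.947 thinned to 500 UMIs, 0.957 with *Yfp*+ from 2 UMIs), and on AngII *Mmp13* (0.685 with graph clusters), *Mmp9* (1.06 thinned to 500 UMIs, 1.23 with graph clusters) and *Mmp14* (1.06 with graph clusters). Both *Mmp12* values come from taking 0 UMIs at 3, in *Yfp*- cells for the first and on both sides for the second. For the other ratios the cause was not tested. In graph clusters 1 of 5 clusters at steady state and 4 of 16 on AngII stayed unnamed.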

Other observations

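Classical monocytes of the AngII library had more of several members as well, and of 7 genes with enough UMIs 7 were at least 2 times higher. Among all 6613 genes compared in this class, 13.9% were higher and 11.1% lower. In this class, of which the steady state library held 10 and the AngII library 186, *Adam8* was at 26.9 and 142 CPM (5.27 times, 2.02 to 19.5), *Mmp19* at 47.2 and 136 CPM (2.88 times, 1.37 to 7.26) and *Timp2* at 13.5 and 73.3 CPM (5.44 times, 1.46 to 45.6). *Mmp14* had 0 and 78 UMIs and was at least 3.01-fold higher on AngII with steady state taken at 3 UMIs, and the 95% interval of its ratio began at 2.39. *Timp2* and *Mmp9* (at least 2.31-fold higher) differed the other way from macrophages, on 2 and 0 steady state UMIs, and the 95% interval of the *Mmp9* ratio began at 1.83, under the 2-fold line. Within this gate the macrophage markers summed to 3308 CPM at steady state (6 of 8 detected, *C1qa* and *C1qc* at 0) and 7333 CPM on AngII (8 of 8), and the neutrophil markers to 263 (4 of 8) and 1517 CPM (8 of 8). Of the AngII cells 88 of 186 were ahead by 1 marker only, as were 4 of 10 at steady state, and the part of these in the differences was not tested.

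Barcodes outside the cell filter held 311 of the 1378 *Mmp12* UMIs of the AngII library, and 219 of these (15.9% of all) were in 1 barcode gated as a classical monocyte with 7 macrophage markers and 54058 UMIs.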
